A study of Mus musculus with 3 samples.

Results

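Glucose uptake, glycolysis and the fate of pyruvate were followed here through 10 genes: the glucose transporter genes Slc2a1 and Slc2a3, the hexokinase genes Hk1, Hk2 and Hkdc1, the enzyme genes Pfkp, Pgk1, Pkm and Ldha, and the kinase gene Pdk1. They were chosen by name, with earlier results of these data known. Every array probe whose RefSeq accession belongs to one of them was used. That gave 14 of the 39429 probes on the array, and 10 of the 14710 genes that could be tested. RNA came from mouse embryoid bodies, which are aggregates of differentiating embryonic stem cells, at day 8 of a cardiac differentiation. On each of 3 arrays with 2 colours, RNA from Hopx-/- embryoid bodies grown with 12.5 µM XAV939 was set directly against RNA from Hopx+/- embryoid bodies. XAV939 blocks tankyrase and so lowers Wnt signalling through β-catenin, and Hopx encodes a small homeodomain protein of the developing heart that does not itself bind DNA.

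The stem cell lines of both genotypes were derived from blastocysts on STO feeder cells, with LIF and, at first, a MEK1 inhibitor, and were later kept on inactivated mouse fibroblasts. Differentiation ran through hanging drops, suspension culture and plating on gelatin in a serum-free medium with VEGF, bFGF, FGF10, ascorbic acid and Glutamax, which both groups shared. The controls carry one disrupted Hopx allele, so no wild-type culture is in the comparison. Genotype and inhibitor changed together, and their parts in any difference cannot be told apart. The labels do not say how many independent lines stood behind each genotype. The labels call the arrays biological replicates. The p-values rest on each gene's spread between these 3 arrays, drawn towards the spread pooled over all genes. Replicates 2 and 3 share a slide. In whole embryoid bodies, fewer cells of a type and less RNA per cell cannot be told apart.

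Values are log2 ratios of null plus inhibitor over heterozygous, given as mean ± SD over n = 3 arrays. A gene was called when its adjusted p in limma (Benjamini-Hochberg over the 14710 genes) was below 0.05, and "rose" and "fell" are used only for called genes. Hopx itself, the targeted gene, goes against the label on replicate 3. On replicates 1 and 2 its log2 ratios were -2.65 and -2.75, but on replicate 3 the library labelled null had the higher Hopx signal, 1669 against 145 intensity units. With replicate 3 as labelled the mean was -0.89 (adjusted p = 0.995). With the sign of replicate 3 reversed, its ratio was -2.73 and the mean -2.71 ± 0.05 (6.54-fold lower, adjusted p = 2.05e-07). A second Hopx probe, with the same reversal, gave -2.25 ± 0.15. The labels do not say which part of Hopx was disrupted, so the probes may lie outside it.

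Every ratio here has a likely direction, and none is settled. By the labels the null RNA carried the red dye, Cy5, on all 3 arrays, but the ratios of replicate 3 taken as labelled ran against the other arrays across genes (r = -0.896 against replicate 1 and -0.917 against replicate 2). Replicates 1 and 2 ran alike (r = 0.971). The sign of replicate 3 was reversed, which the authors' deposited table also does. The direction rests on how replicates 1 and 2 are labelled, the signs in that table, and the lower Hopx in the libraries labelled null on replicates 1 and 2. For replicate 3, "null" below means the library labelled heterozygous. Were replicate 3 labelled rightly and replicates 1 and 2 wrongly, every sign below would turn. Then 8 of the members would be higher and 1 lower, and every rank would count from the other end. Between 61.4% and 68.0% of spots were well above background in Cy3 and between 56.6% and 66.6% in Cy5. All 14 member probes were well above background in both groups on all 3 arrays.

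Glucose enters cells through facilitative transporters of the SLC2A (GLUT) family and is trapped inside by hexokinases, which phosphorylate it. Phosphofructokinase then commits the sugar to glycolysis, phosphoglycerate kinase and pyruvate kinase make ATP, and lactate dehydrogenase turns pyruvate into lactate, while pyruvate dehydrogenase kinases hold pyruvate back from the mitochondria. Pluripotent stem cells and early embryos are known for a high rate of glycolysis, and heart muscle cells shift to mitochondrial oxidation as they mature. Several of these genes are textbook targets of the hypoxia-inducible factors, which bind the core sequence ACGTG or GCGTG.

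That core was searched on both strands in the promoters that RefSeq (build GRCm38.p6) gives for the members, each window running from 250 bases before to 50 bases after a transcript's start. Of the 10 genes 9 matched an entry, with 13 windows between them. The palindrome CACGTG counts once on each strand, and matches may overlap. A match to either core was found in 10 of the 13 windows and in at least 1 window of each of the 9 genes. Of all 32817 promoters of that length, 43.8% held a match, 19.6% for ACGTG and 32.4% for GCGTG. These shares are per window, so they do not apply to the count of genes, some of which have more than 1 window. GC content ran from 40.3% to 67.3% in the member windows and was not matched in the comparison. A match is a description of letters and not of binding. The 4 windows below are printed as examples: Slc2a1 and Pgk1 fell, Ldha was not called and has the most matches of the 13 windows (7), and Hkdc1 fell furthest and has 1. No window of Pkm, the member that rose, and no window without a match is printed. Capitals mark the matches, read 5′ to 3′ on the gene's strand.
Slc2a1, chr4:119108495-119108794, plus strand: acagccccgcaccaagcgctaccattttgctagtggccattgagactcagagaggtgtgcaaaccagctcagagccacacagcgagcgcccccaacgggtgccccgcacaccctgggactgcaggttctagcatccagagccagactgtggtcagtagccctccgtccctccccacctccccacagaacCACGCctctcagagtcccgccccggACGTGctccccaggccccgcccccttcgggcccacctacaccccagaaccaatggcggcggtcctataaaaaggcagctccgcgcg
Pgk1, chrX:106186850-106187149, plus strand: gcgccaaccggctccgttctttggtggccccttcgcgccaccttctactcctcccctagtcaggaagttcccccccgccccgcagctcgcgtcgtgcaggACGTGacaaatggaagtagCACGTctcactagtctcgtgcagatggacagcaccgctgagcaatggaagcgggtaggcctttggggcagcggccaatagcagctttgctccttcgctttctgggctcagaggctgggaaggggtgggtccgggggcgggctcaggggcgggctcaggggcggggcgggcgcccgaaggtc
Ldha, chr7:46845554-46845853, plus strand: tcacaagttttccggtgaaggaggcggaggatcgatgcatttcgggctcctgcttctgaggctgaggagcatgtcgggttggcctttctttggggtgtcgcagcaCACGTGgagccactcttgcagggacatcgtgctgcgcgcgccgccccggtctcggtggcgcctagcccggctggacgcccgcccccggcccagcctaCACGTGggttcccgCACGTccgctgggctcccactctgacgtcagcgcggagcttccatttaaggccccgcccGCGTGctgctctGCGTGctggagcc
Hkdc1, chr10:62422408-62422707, minus strand: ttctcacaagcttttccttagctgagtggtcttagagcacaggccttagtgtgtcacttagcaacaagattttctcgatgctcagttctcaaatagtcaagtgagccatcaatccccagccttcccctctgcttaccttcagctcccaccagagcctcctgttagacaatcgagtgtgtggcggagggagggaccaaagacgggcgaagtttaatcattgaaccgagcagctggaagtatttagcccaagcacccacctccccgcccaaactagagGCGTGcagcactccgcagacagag

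The 10 genes moved mostly one way. In the null cultures with inhibitor 8 fell, Pkm rose and Ldha was not called. After normalization each gene had the same sign on all 3 arrays, a trait that was not counted over all genes tested. The median over the 10 genes was -0.63, against -0.01 over all genes tested, and the means ran from -4.58 for Hkdc1 to 1.07 for Pkm. Most of the array moved too: 64.5% of all genes tested were called, 33.0% lower and 31.5% higher. The share of members called in either direction is thus to be read against 64.5%, and that of lower calls against 33.0%. Because the members were chosen with earlier results of these data known, their counts and median are description and not a test of the pathway. At the level of single probes 9 of the 14 were called, 8 lower and 1 higher, where 60.2% of all tested probes were called. Only 3 members passed a mean log2 ratio of 1 in size: Slc2a3 and Hkdc1 downwards and Pkm upwards.

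**Figure D1:**
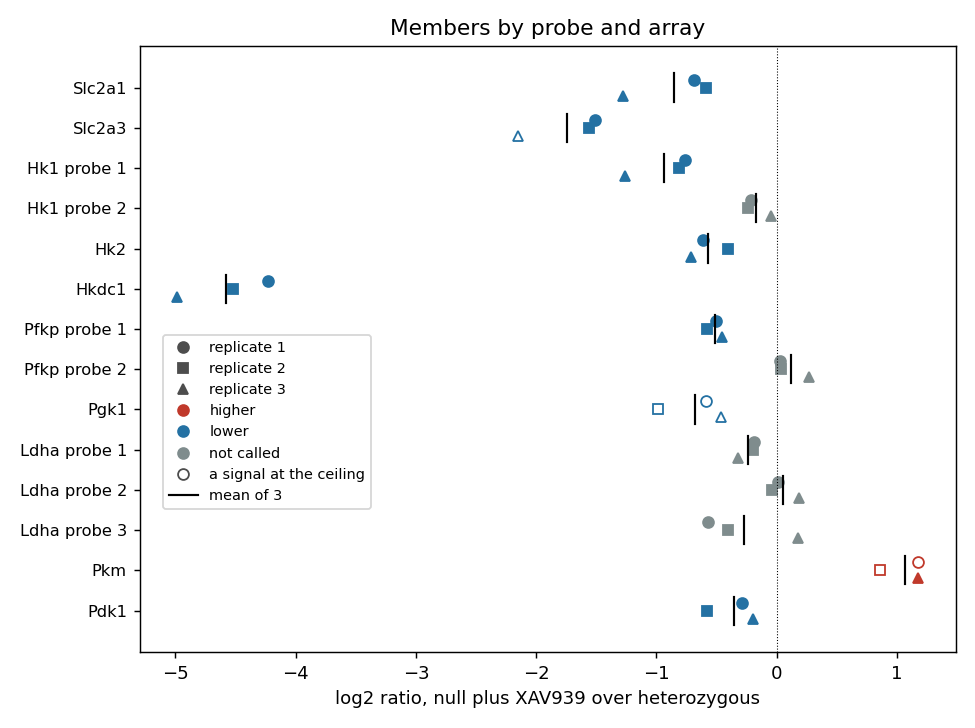
Log2 ratio of null plus XAV939 over heterozygous for each of the 14 member probes (rows) on each of the 3 arrays (circle, square and triangle), with the mean as a vertical bar. Colour gives the call, and open symbols mark arrays on which a signal of that probe reached the scanner's ceiling; Hkdc1 lies alone near -4.58, Pkm alone to the right of 1, and the second probes of Hk1 and Pfkp lie closer to 0 than the first.

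The transporters carried falls of different size. Slc2a1 encodes GLUT1, the transporter behind basal glucose uptake in most cells of the embryo. Its heterozygous signals were 28062, 31280 and 52664 intensity units on replicates 1 to 3, and the null signals were 32577, 40754 and 16349. After normalization the log2 ratios were -0.69, -0.59 and -1.28, with replicate 3 the lowest. The level was 1.8-fold lower (-0.85 ± 0.37, adjusted p = 0.000741), and 1820 of the 14710 genes had a lower ratio.

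Slc2a3 encodes GLUT3, a transporter with high affinity for glucose that is found in neurons and in early embryonic cells. Its signals were 50356, 64653 and 65528 in the heterozygous cultures and 33090, 43313 and 11068 in the null cultures. The null signal was lower on each array even before normalization. The log2 ratios were -1.51, -1.56 and -2.15, a 3.35-fold lower level (-1.74 ± 0.36, adjusted p = 9.12e-06). On replicate 3 the heterozygous signal stood at the ceiling of the scanner, so the true difference in signal there may be larger than measured, and the normalized ratio is no strict bound. With that array left out of the gene's mean the value was -1.54 and remained called. Only 429 genes had a lower ratio.

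The hexokinases differed most from one another. Hkdc1, a less studied member of the hexokinase family, gave 7091, 9016 and 12377 intensity units in the heterozygous cultures and 673, 659 and 255 in the null cultures. The null signal was far below the heterozygous one on every array. The log2 ratios were -4.23, -4.52 and -4.99, a 23.9-fold lower level (-4.58 ± 0.38, adjusted p = 1.13e-07), and 8 of all genes tested had a lower ratio. Both groups were measured well below the ceiling and well above background, so this ratio is bounded on neither side.

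Hk1 encodes the hexokinase that most tissues express and that sits on the outer mitochondrial membrane. Its brighter probe had heterozygous signals of 9054, 10152 and 14400 and null signals of 9831, 10897 and 4407. The log2 ratios were -0.76, -0.81 and -1.26, a 1.92-fold lower level (-0.94 ± 0.28, adjusted p = 0.000175). The second Hk1 probe was dim, at 107 to 225 units over both groups, and gave -0.21, -0.24 and -0.05 (-0.17 ± 0.10, adjusted p = 0.179 over all probes), so the fall of Hk1 rests on 1 probe of the pair. Hk2 encodes the inducible hexokinase of muscle, fat and tumours. Its heterozygous signals of 3000, 3698 and 5104 stood against null signals of 3506, 5041 and 2236. After normalization the log2 ratios were -0.61, -0.40 and -0.71, a 1.49-fold lower level (-0.57 ± 0.16, adjusted p = 0.00139). All 3 hexokinases of the set thus had a called fall, but that of Hkdc1 was the only one past 1 in size.

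Of the enzymes that follow, Pfkp encodes the platelet form of phosphofructokinase, the committing step. Its brighter probe gave 674, 708 and 959.5 units in the heterozygous cultures and 824, 747 and 463.5 in the null cultures. The log2 ratios lay close together at -0.50, -0.58 and -0.45, and the level was 1.42-fold lower (-0.51 ± 0.07, adjusted p = 0.00174). The dim second Pfkp probe gave 0.03, 0.04 and 0.27 (0.12 ± 0.14, adjusted p = 0.364 over all probes). The mean over both probes was -0.20 and was not called (adjusted p = 0.0922), and with marked local backgrounds kept the brighter probe was not called either (-0.34, adjusted p = 0.0684).

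Pgk1 encodes phosphoglycerate kinase, the first of the ATP-forming steps. Its heterozygous signals were 52174, 65529 and 65529, and its null signals 65523, 65528 and 36221, so that at least 1 channel was at the ceiling on every array and both were on replicate 2. The log2 ratios were -0.59, -0.99 and -0.46 (-0.68 ± 0.28, 1.6-fold lower, adjusted p = 0.00123). No array gave a ratio free of the ceiling: it cut the null signal on replicate 1 and the heterozygous one on replicate 3, which shift the ratio in opposite directions. On replicate 2 the signals differed by 1 intensity unit, and the ratio of -0.99 there came from the normalization of bright spots alone. The size of the Pgk1 fall is therefore not measured, and its call should be read with that limit.

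Pkm encodes the muscle-type pyruvate kinase, whose transcripts M1 and M2 arise by alternative splicing of one exon pair. Which of them the single probe reads is not stated in the files. It was the one member to rise: heterozygous signals of 15490, 18412 and 32993 stood against null signals of 65526, 65528 and 56939. The null signal was above the heterozygous one on each array before normalization. The log2 ratios were 1.18, 0.86 and 1.18, a 2.11-fold higher level (1.07 ± 0.18, adjusted p = 3.87e-05). The null signals of replicates 1 and 2 were at the ceiling, so the true differences in signal there may be larger than measured, and the normalized ratios are no strict bounds. Replicate 3, on which neither channel was at the ceiling, gave 1.18.

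Ldha encodes the A subunit of lactate dehydrogenase and has 3 probes on the array. The brightest, with 26605 to 42819 units in the heterozygous and 25891 to 49841 in the null cultures, gave log2 ratios of -0.19, -0.20 and -0.32 (-0.24 ± 0.07, adjusted p = 0.0597). The second probe gave 0.01, -0.04 and 0.19 (0.05 ± 0.12, adjusted p = 0.68 over all probes), and the third -0.57, -0.40 and 0.18 (-0.27 ± 0.39, adjusted p = 0.146 over all probes). None of the 3 probes passed the test, and their means differed in sign. With dye orientation as a term in the fit, which leaves 1 residual degree of freedom, Ldha was called at -0.26 (adjusted p = 0.0103, where 14 alternatives that keep all arrays, other than replicate 3 as labelled, ranged from 0.0103 to 0.766).

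Pdk1 encodes a pyruvate dehydrogenase kinase, a textbook hypoxia target that keeps pyruvate from oxidation. Its heterozygous signals were 713, 945 and 863.5 and its null signals 1009, 1024 and 501.5. The log2 ratios of -0.29, -0.58 and -0.20 gave the smallest called fall of the set, 1.28-fold (-0.35 ± 0.20, adjusted p = 0.0206). This call was also the least stable. Of 14 alternative settings that keep all arrays, other than replicate 3 as labelled, 9 kept it, and it was lost when replicate 1 was left out (-0.39, adjusted p = 0.0583) or replicate 2 (-0.24, adjusted p = 0.243).

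**Figure D2:**
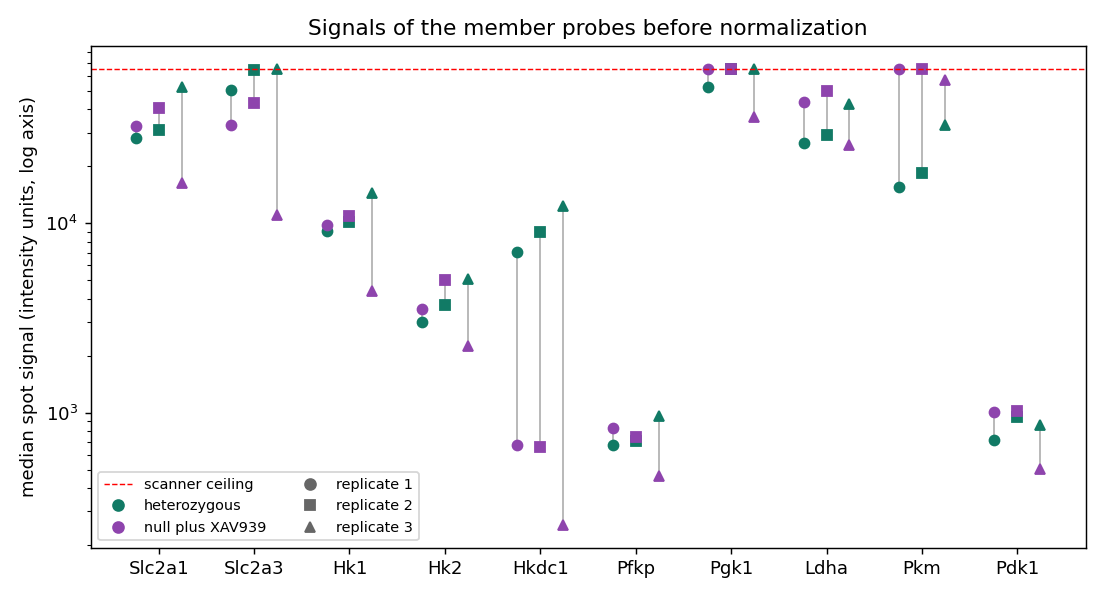
Median spot signal of the brightest probe of each member (log axis, intensity units) in the heterozygous (green) and the null plus XAV939 cultures (purple), joined within each of the 3 arrays, before any normalization; the dashed line is the scanner ceiling of 65529 units. Hkdc1, Slc2a3 and Pkm are separated in one direction on all 3 arrays, while for 6 members the null signal is above the heterozygous one on replicates 1 and 2 and below it on replicate 3; both Pgk1 signals of replicate 2 lie on the ceiling.

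The signals before normalization show how far the smaller falls rest on the correction for dye. For Slc2a1, Hk1, Hk2, Pfkp, Ldha and Pdk1 the null signal was above the heterozygous one on replicates 1 and 2, where the null RNA was in Cy5, and below it on replicate 3, where it was in Cy3 as turned. Loess normalization removes such a difference as a function of brightness. With each array only centred on its median, 2 members remained called lower, Slc2a3 (-1.39, adjusted p = 0.00761) and Hkdc1 (-4.36), and Pkm remained higher (1.43, adjusted p = 0.00163). The means of the other 6 falls kept their sign without passing the test, from -0.21 for Pdk1 (adjusted p = 0.476) to -0.64 for Hk1 (adjusted p = 0.111). On single arrays the centred ratios of Slc2a1 and Hk2 were positive on replicate 2 (0.13 and 0.19) and that of Pdk1 on replicate 1 (0.03). Those of Hk1, Pfkp and Pgk1 were negative on every array. That centring moved the median of all genes from -0.01 to 0.10 and the share of higher calls among all calls from 48.9% to 60.0%. When median centring was joined with dye orientation as a term, so that both orientations weigh alike, the values were -0.74 for Slc2a1, -1.62 for Slc2a3, -0.84 for Hk1, -0.48 for Hk2 and for Pfkp, -4.59 for Hkdc1, -0.39 for Pgk1, -0.29 for Pdk1, -0.04 for Ldha and 1.32 for Pkm. The 8 genes called lower in the reported fit kept their sign there, as did Pkm. Replicate 3 alone stood for its orientation, on 1 residual degree of freedom. The calls of that fit therefore lean on the spread pooled over genes and are not counted for the members here.

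Signals at the ceiling were frequent in this pathway. Of the members 3 of 10 (30%) had a signal within 10 units of the ceiling or marked as saturated on at least 1 array, namely Slc2a3, Pgk1 and Pkm, and the scanner software had marked only Pgk1. Among 16 tested genes for other glycolysis enzymes the number was 5 (31.2%), and among all genes tested 182 of 14710 (1.24%). Where only the brighter signal of an array is at the ceiling, the difference in signal before normalization is understated.

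**Figure D3:**
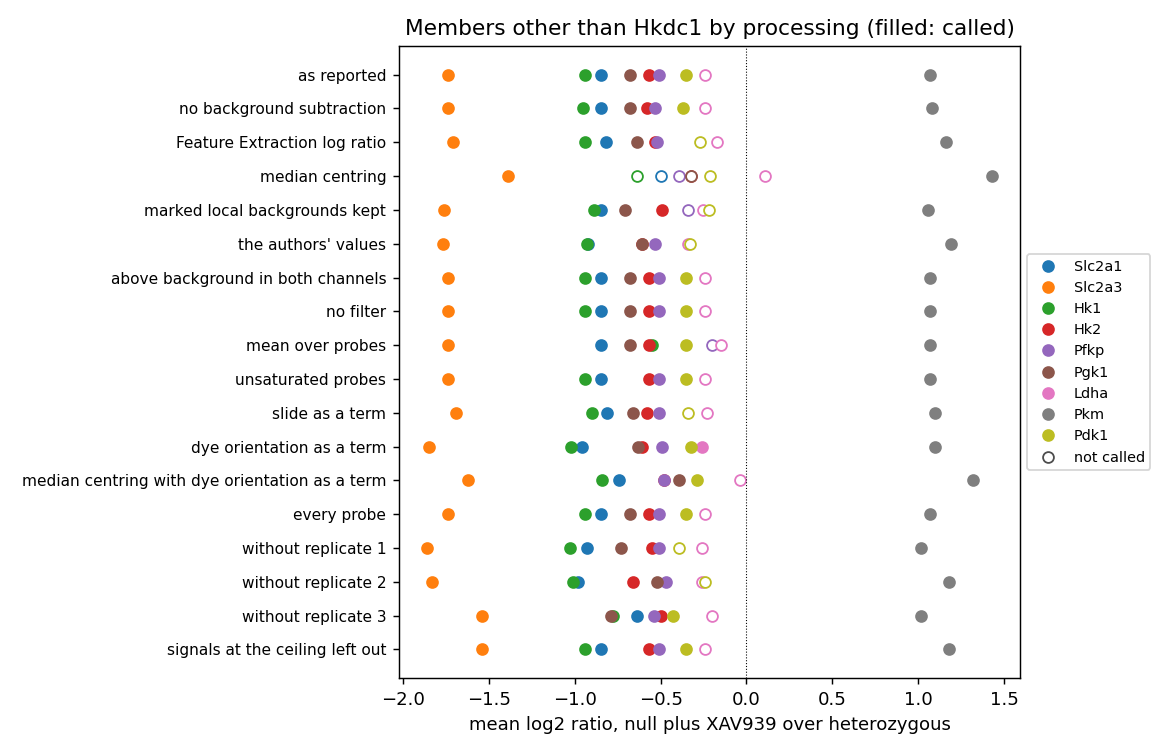
Mean log2 ratio (horizontal axis) of 9 members under the reported processing (top row) and the alternatives other than replicate 3 as labelled (rows), with filled symbols where the gene was called. Hkdc1 is left out for scale, at -4.76 to -4.14 over the settings that keep all arrays. Pkm and Slc2a3 keep their side and their call in all rows shown, and the 6 smaller falls lose their call under median centring alone.

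The rest of glucose metabolism was described through 8 lists of 90 genes, of which 81 were tested: 21 rose, 33 fell and 27 were not called, with a median of -0.20. Thus 25.9% were higher and 40.7% lower, against 31.5% and 33.0% of all genes tested. Each list count below is to be read against those array-wide shares. Among the 16 tested genes for other glycolysis enzymes 3 rose, 6 fell and 7 were not called (median -0.25). The largest falls were in isoforms of particular tissues. Pgam2, the muscle phosphoglycerate mutase, was 6.1-fold lower (-2.61 ± 0.30, adjusted p = 7.34e-07). Eno3, the muscle enolase, gave -1.87 ± 0.46, Eno2, the neuronal enolase, -1.34 ± 0.17, and Aldoc, the brain aldolase, -1.48 ± 0.31. Against these, Bpgm, which makes 2,3-bisphosphoglycerate, rose by 1.22 ± 0.16, Ldhb, the heart-type lactate dehydrogenase subunit, by 0.84 ± 0.16, and Eno1, the general enolase, by 0.39 ± 0.40 (adjusted p = 0.0424, at the ceiling on 1 array). Tpi1, triosephosphate isomerase, fell by 0.41 on the log2 scale. Gapdh (7 probes), Aldoa and Pgam1 were not called, but the signals behind them were at the ceiling on 3, 3 and 2 arrays, so these genes are poorly measured here. With median centring 2 genes of the list were higher and 4 lower, and with marked local backgrounds kept 2 and 5. Eno1 was called in neither. Pgk1, Ldha and Gapdh have many near-identical processed copies in the mouse genome, and signal from such copies cannot be told apart by the probes.

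**Figure D4:**
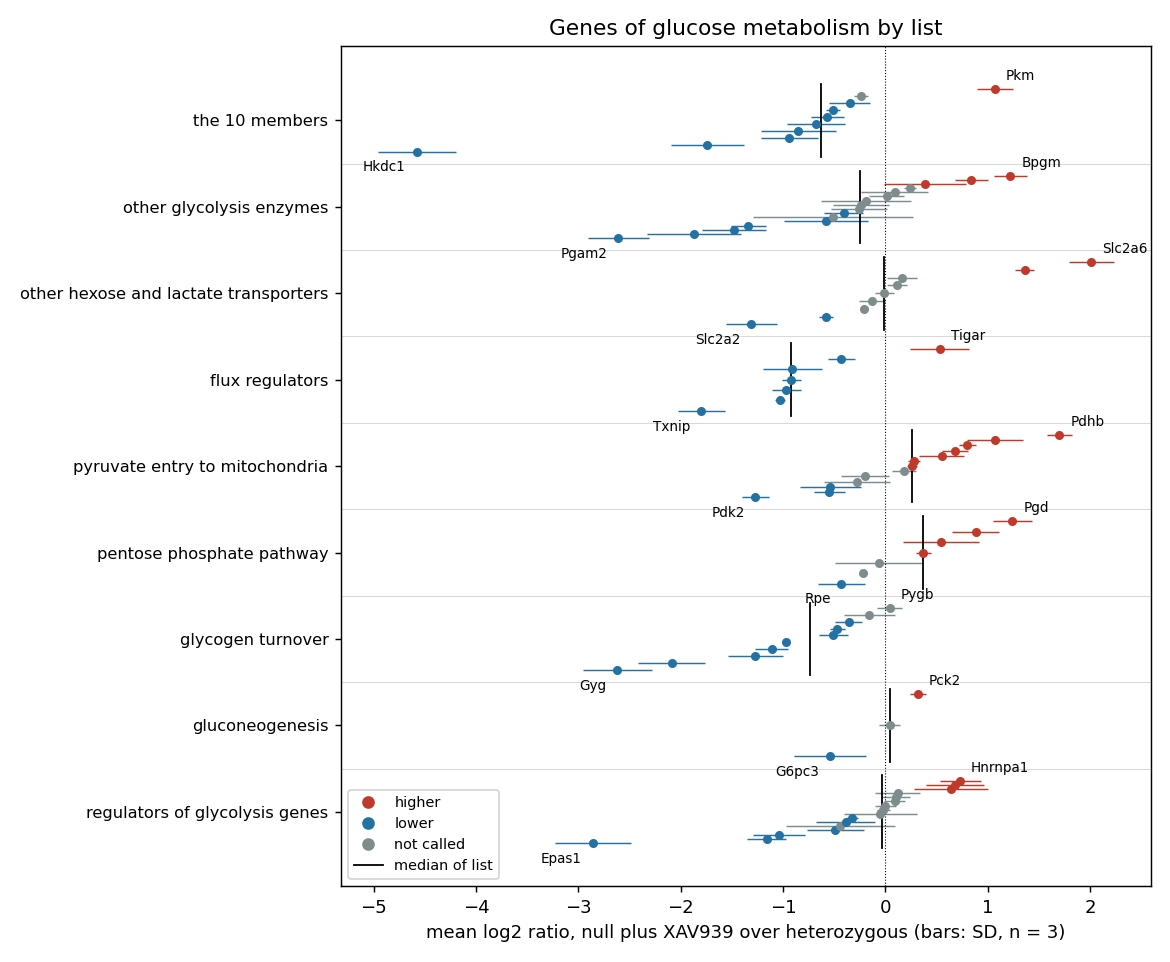
Mean log2 ratio of null plus XAV939 over heterozygous (points, with SD over 3 arrays as bars) for every tested gene of the 10 members and of 8 further lists, coloured by call, with the list median as a vertical bar and the lowest and highest gene of each list named. The medians of the flux regulators (-0.92) and of glycogen turnover (-0.74) lie below that of the members (-0.63), and those of pyruvate entry (0.26) and the pentose phosphate pathway (0.37) lie above 0.

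Of 9 tested genes for other transporters of hexoses and lactate 2 rose, 2 fell and 5 were not called, with a median of -0.01. All 4 calls depend on how the local background is treated: with marked local backgrounds kept, each of these genes fell short of the threshold. Slc2a2, the transporter of liver, gut and visceral endoderm, was well above background on no array in the null cultures. It passed the filter only through the heterozygous cultures, which favours a lower ratio in advance. Its call (fitted -1.31 ± 0.25, adjusted p = 1.93e-05) is therefore weak evidence of a fall. The bound of at least 2.37-fold lower does not hold across settings: with marked backgrounds kept Slc2a2 gave -0.55 (adjusted p = 0.115). Slc2a5, a fructose transporter, rose (1.36 ± 0.09, adjusted p = 5.74e-06), against 0.68 with marked backgrounds kept (adjusted p = 0.109). Slc2a6 rose as well (2.01 ± 0.22), against 1.09 (adjusted p = 0.0915). Slc2a4, the insulin-responsive transporter of muscle and fat, fell by 0.58 on the log2 scale, against -0.40 (adjusted p = 0.0529). The lactate carrier genes Slc16a1 and Slc16a3 were not called.

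Of 7 genes that set the flux through glycolysis 6 fell and 1 rose (median -0.92). Txnip, which limits glucose uptake and is itself induced by glucose, was 3.49-fold lower (-1.80 ± 0.23, adjusted p = 2.87e-06). The 4 genes for the bifunctional enzyme that sets fructose 2,6-bisphosphate fell: Pfkfb1 by 1.03, Pfkfb2 by 0.91, Pfkfb3 by 0.92 and Pfkfb4 by 0.43 on the log2 scale. Gckr, the glucokinase regulator, gave -0.97 ± 0.14. Tigar, a phosphatase that lowers fructose 2,6-bisphosphate, was the 1 gene of the list to rise (0.53 ± 0.29, adjusted p = 0.00518). With marked local backgrounds kept 3 of the 7 were lower, Txnip, Pfkfb1 and Pfkfb3, while Pfkfb2 (-0.61, adjusted p = 0.111), Pfkfb4 (-0.30, adjusted p = 0.135) and Gckr (-0.55, adjusted p = 0.0706) were not called. Under median centring alone 5 were lower, and Pfkfb4 and Tigar were not called.

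Beside Pdk1, a list of genes for the entry of pyruvate to the mitochondria held carrier and pyruvate dehydrogenase subunits, the phosphatases and the other kinases that set that enzyme's activity, and pyruvate carboxylase. Of 13 tested genes 7 were higher, 3 lower and 3 not called (median 0.26). The pyruvate dehydrogenase subunit gene Pdhb gave 1.70 ± 0.12 (adjusted p = 1.92e-06), although its second probe gave 0.37. The phosphatase genes Pdp1 and Pdp2, which undo the action of the kinases, gave 0.80 ± 0.08 and 1.07 ± 0.27. Of the other kinases Pdk2 fell (-1.27 ± 0.13, adjusted p = 1.07e-05), Pdk3 rose (0.26 ± 0.05, adjusted p = 0.042) and Pdk4 was not called (-0.20 ± 0.23). Mpc2, a subunit of the mitochondrial pyruvate carrier, and Pcx, pyruvate carboxylase, fell by 0.55 and 0.54 on the log2 scale. With median centring 5 genes of the list were higher and 1 lower, and with marked local backgrounds kept 5 and 2. Pdk3 and Pcx were called in neither, and Mpc2 was not called with median centring.

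The branches off glycolysis differed. In the pentose phosphate pathway, which draws on the glucose 6-phosphate that hexokinases make, 4 of 7 genes rose and 1 fell (median 0.37). Pgd, the second dehydrogenase of its oxidative arm, gave 1.24 ± 0.19 (adjusted p = 1.77e-05), and Rpe fell by 0.43 on the log2 scale. In glycogen turnover 8 of 10 genes fell and none rose (median -0.74). Gyg, the glycogen primer glycogenin, was 6.16-fold lower (-2.62 ± 0.34, adjusted p = 8.81e-07) with a second probe at -2.67, Pygl, the liver phosphorylase, gave -2.09 ± 0.33, and the branching enzyme gene Gbe1 and the muscle glycogen synthase gene Gys1 gave -1.27 ± 0.27 and -1.11 ± 0.16. Of the 3 tested gluconeogenesis genes 1 rose (Pck2, 0.32 ± 0.08), 1 fell (G6pc3, -0.54 ± 0.35) and 1 was not called. With median centring 3 pentose phosphate genes were higher and 5 glycogen genes lower, and with marked local backgrounds kept 3 and 6. Rpe, Pck2 and G6pc3 were called in neither.

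Genes for regulators of the members moved both ways, with 3 of 16 higher, 6 lower and 7 not called (median -0.03). These shares, 18.8% higher and 37.5% lower, stand against 31.5% and 33.0% of all genes tested. Hif1a, the hypoxia-inducible factor most tied to glycolysis genes, was not called (adjusted p = 0.971, SD 0.10). Epas1, which encodes the related HIF-2α, fell 7.25-fold on its brightest probe (-2.86 ± 0.37, adjusted p = 7.36e-07). Its other probes gave -1.58, called, and -0.19, not called. Hif3a (-1.16 ± 0.19) and the oxygen-sensing prolyl hydroxylase gene Egln3 (-1.04 ± 0.25) fell as well, with second probes at -0.39 and -0.75, both called. Myc, which also drives glycolysis genes, was not called (0.10 ± 0.14), and Mycn rose (0.64 ± 0.36, adjusted p = 0.0035). The splicing factor genes Ptbp1 (0.68 ± 0.28) and Hnrnpa1 (0.73 ± 0.20), which favour the M2 form of pyruvate kinase, rose, and Hnrnpa2b1 was not called. A second Ptbp1 probe was not called (0.35 ± 0.35, adjusted p = 0.054 over all probes), and a second Hnrnpa1 probe was called higher at 0.80. Mlxipl and Egln2, not called on their brightest probes, each had a second probe that was called higher (1.46 and 0.48). With median centring, and again with marked local backgrounds kept, 3 genes of the list were higher and 3 lower.

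Markers of several cell types moved in the same comparison. All 8 endoderm markers fell (median -4.23, from -5.54 to -2.53), as did all 6 heart muscle markers (median -1.52), which were well above background in both groups on all 3 arrays. Of 6 pluripotency markers 4 rose and 1 fell (median 1.42), with Dnmt3b at 3.83 ± 0.16 (at the ceiling on 2 arrays), Pou5f1 at 2.50 ± 0.27, Sox2 at 1.85 ± 0.26, and Zfp42, which fell, at -1.19 ± 0.23. Dppa5a was not called. Nanog, 1 of the 4 that rose, gave 1.00 ± 0.14 on its brightest probe. Its other probes gave 0.69, called higher, and -0.46, called lower. Of 6 fibroblast markers, which feeder cells could also supply, 4 fell and 1, Thy1 at 0.97 ± 0.06, rose (median -1.48). Of 4 endothelial markers 2 rose and 1 fell, and of 2 tested blood markers 1 rose. The ratio of Hkdc1 lay within the range of the endoderm markers, and the ratios of the other 7 members that fell lay above that range. The part of these shifts in the members' ratios was not tested.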

How the data were processed

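Of 44397 spots on each Agilent array (design 026655, annotated on mm9 per the file headers), 43020 were not controls. The deposited spot and local background signals are median pixel intensity, extracted by the authors with Agilent Feature Extraction (11.5.1.1 in the file headers, against 8.5.1.1 in the submitters' processing notes). Per the file headers a log10 ratio of Cy5 to Cy3 is given for each spot, and 0 or 1 marks there give saturation, outliers and signal above background. The authors' deposited value table fits log2 ratios, with r of 0.885, 0.945 and -0.94 against the log2 ratio of the raw median Cy5 and Cy3 signals. Its column medians were 0.085, -0.08 and 0.053. The normalization and centring of that table are not given in the sources used here, and it was used as an alternative.

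Background correction was by normexp with an offset of 50, and loess was run within each array, in limma 3.58.1 (R 4.3.3), without outlier spots. Local backgrounds marked as outliers were replaced by the channel's median. Of 39429 probes 28025 were named through RefSeq accessions (21153 symbols). Probes well above background on every array, in either channel or both, were tested, and the brightest one stood for its gene. limma compared the mean with 0 (8.65 degrees of freedom, 6.65 from the prior). For a group never above background, "at least" compares the brighter group's mean with the lowest signal above background on each array, on dye-specific values in which a dye bias can persist. The test was checked on simulated data with far fewer changed genes than here and no dye or ceiling effects. That check does not cover those features of the arrays.

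The number of arrays limits precision, and the median SD was 0.17. Outside the members, the text names genes of the metabolism lists past the threshold and 1 in size or moving against their list's majority. It also names a few markers per cell type list and some others as context, chosen after their values were seen. The members and lists were chosen with earlier results of these data known.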

Additional observations from a re-analysis of the deposited data

How the results depend on the processing

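The arrays form 1 group of direct ratios. No paired analysis was possible because each array already is a pair of both RNAs. With median centring in place of loess, 3034 genes were called higher and 2019 lower, 2 members were called lower, and Ldha turned to 0.11. With marked local backgrounds kept the counts over all genes were 2661 and 2254, and over every probe 7006 and 7660. With replicate 3 as labelled limma called 0 and 0 (13 and 27 at an unadjusted p under 0.05), no member was called (0 higher, 0 lower), and Slc2a1 stood at 0.00. Leaving out each replicate gave 3501 to 5280 genes higher and 3709 to 5340 lower, with 7 to 8 members lower and 1 higher. The call of Pdk1 was also lost with the Feature Extraction log ratio (-0.27), marked backgrounds kept (-0.22), the authors' values (-0.33) and slide as a term (-0.34). Slide as a random block was not run, since 3 arrays on 2 slides give no estimate. Slide as a term, dye orientation as a term (also joined with median centring) and leaving out signals at the ceiling were added after seeing the data. In the fits with a dye or slide term, and in those that leave out a replicate, 1 residual degree of freedom remains. Their calls therefore lean on the spread pooled over genes. The scanner's ceiling limits the sizes for Slc2a3, Pkm and Pgk1, and Pgk1 has no value with saturated probes or signals at the ceiling left out.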

Other observations

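Hkdc1 and Hk1 are neighbours on mouse chromosome 10, and the tested genes around them were looked up after their values were seen. In genome order (RefSeq, GRCm38.p6) the mean log2 ratios were -0.85 for Fam241b, -0.19 for Neurog3 (not called), 0.56 for Tspan15, -0.49 for Tacr2, -0.94 for Hk1, -4.58 for Hkdc1, 0.53 for Supv3l1, -0.48 for Vps26a, -5.45 for Srgn and -0.38 for Kifbp. Srgn, which encodes the proteoglycan core protein serglycin, gave -5.04, -5.40 and -5.92 on replicates 1 to 3 and was 43.9-fold lower (SD 0.44, adjusted p = 8.8e-08), with 1 of the 14710 tested genes lower still. Supv3l1 and Vps26a, which lie between Hkdc1 and Srgn among the tested genes, were higher and lower by less than 1 on the log2 scale.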
